A study of Mus musculus with 4 samples.

Results

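The nuclear genes for the subunits of oxidative phosphorylation were compared, complex by complex, in gastrocnemius muscle of mice with and without the transcription factor KLF15 in muscle. Members were the genes whose annotation symbol begins with Nduf, Uqcr, Atp5 or Cox followed by a digit from 4 to 8, or is Sdha, Sdhb, Sdhc or Sdhd. Each gene was read by its brightest transcript cluster, the array's unit for 1 transcript region, among clusters with a single symbol. The rule found 89 of the 22180 genes on the array. They were 34 subunits of complex I, 4 of complex II, 7 of complex III, 17 of complex IV and 17 of complex V, with 8 complex I assembly factors of the Ndufaf family and 2 pseudogenes. Complexes were assigned by symbol, so the complex I counts and medians include Ndufa4, now usually placed in complex IV. They also include its paralogue Ndufa4l2, and those of complex IV include Cox7a2l, a factor that joins complexes III and IV. A filter on mean level, near an intensity of 5.81, was passed by 83 members, 75 of them subunits, and by 13258 genes in all. The subunits below it were Ndufs5, Cox7b2, Cox8c and Atp5j2, and neither pseudogene passed it.

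The study used 4 arrays, 1 for each group. Wild-type (WT) mice and mice with a skeletal-muscle-specific KLF15 knockout (KO) received either sodium citrate vehicle or streptozotocin (STZ), a toxin of insulin-producing beta cells that makes mice diabetic. STZ was given intraperitoneally at 50 mg/kg for 5 days in 50 mM citrate of pH 4.5, and muscle was collected 3 weeks later, per the labels' protocols. The strain, the age, the Cre driver, the deleted exons and whether animals were pooled are given nowhere in the sources used here. With 1 array per group there is no error between animals and no test, so every difference below compares 2 arrays.

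Oxidative phosphorylation passes electrons from NADH through complex I, or from succinate through complex II, to ubiquinone, then through complex III and cytochrome c to complex IV, which reduces oxygen. Complexes I, III and IV pump protons across the inner mitochondrial membrane, and complex V, the ATP synthase, uses their return to make ATP. Most subunits are encoded in the nucleus and a few in mitochondrial DNA, and slow oxidative fibres hold more of the machinery than fast glycolytic fibres. In bulk muscle, fewer fibres of a type and less RNA per fibre cannot be told apart.

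The arrays were checked before the members were read. Klf15 itself had intensities of 50.5 (vehicle) and 72.1 (STZ) in WT and 19.8 (vehicle) and 16.0 (STZ) in KO, so both KO arrays were low for it, though whether its cluster reads the deleted part is not known. All 7 fast-fibre markers were detected, with a summed intensity from 42768 to 44586, and the 8 slow-fibre markers summed to 1610 and 1667 in WT given vehicle and STZ and to 1318 and 1068 in KO. Adipocyte markers, 6 of 7 on the array, summed to 1093, 1363, 1108 and 882 in the same order. Most of each sum came from Fabp4 alone, at 934, 1194, 912 and 763. Of the 4 brown adipocyte markers 1 passed the filter, and Ucp1 lay between 3.77 and 4.52. Endothelial markers summed to 591, 569, 714 and 660 and macrophage markers to 246, 297, 259 and 307. Fibroblast markers summed to 2584, 2801, 3008 and 3039. Among these Col1a1 had 425, 399, 721 and 756, higher in KO, and Dcn 1746, 1972, 1694 and 1670, lower in KO. Median intensities of the arrays ran from 5.73 to 5.96, but percentile 95 was lowest for KO STZ, at 179.4, and highest for WT STZ, at 206.8, so bright genes as a whole differed between these arrays. Because 62 of the 75 subunits lay above percentile 75 of level, each was also set beside the median of a fixed number of other genes nearest to it in mean level, and each family direction was checked after quantile normalization, which forces all 4 arrays to one distribution.

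Subunit transcripts stood highest on the WT STZ array and lowest on the KO STZ array more often than on any other. Of the 75 subunits, 44 were highest in WT STZ, 20 in KO vehicle, 6 in KO STZ and 5 in WT vehicle, and 37 were lowest in KO STZ, 21 in WT vehicle, 12 in KO vehicle and 5 in WT STZ. Among all genes 32.2% were highest in WT STZ and 33.5% lowest in KO STZ. The middle level range of the subunits, their percentiles 10 to 90, with mean intensities from 38.6 to 1917, held 4781 other genes. Among these the shares were 43.0% and 45.3%. Most of them were dimmer than the median subunit, at level percentile 97.0 of genes past the filter, so this range is not matched gene by gene. After quantile normalization 28 of 75 subunits were highest in WT STZ, against 27.0% of other genes in that range, and 11 were lowest in KO STZ, against 22.6%.

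**Figure D1:**
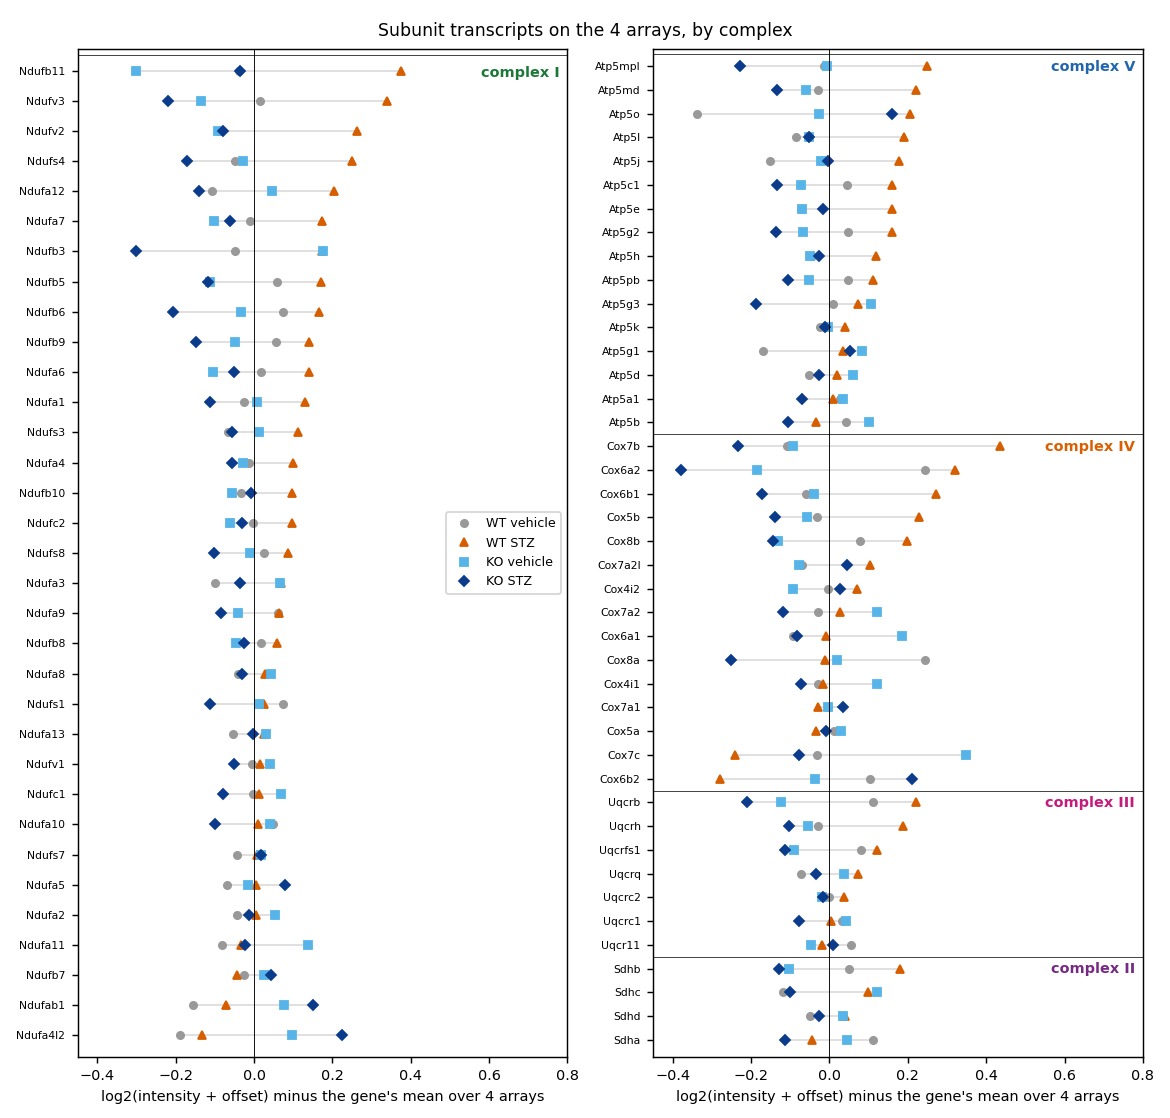
Each row is 1 of the 75 subunits past the level filter, grouped by complex, and each of its 4 points is 1 array; the horizontal axis is log2(intensity + offset) minus the gene's mean over the 4 arrays. WT STZ (triangles) is the highest array for 44 subunits and KO STZ (diamonds) the lowest for 37, on the deposited scale; after quantile normalization these are 28 and 11.

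In WT muscle with STZ, most subunits stood slightly above vehicle, led by Atp5o and Cox7b, and complex V had the highest median. Differences are in log2(intensity + 3.69), STZ minus vehicle. Subunits of all 5 complexes had medians above 0: 0.085 for complex I, 0.11 for complex II, 0.041 for complex III, 0.074 for complex IV and 0.14 for complex V, though complex III lay at -0.034 after quantile normalization. Of the 75 subunits 62 were above 0, against 51.5% of all genes and 57.4% of other genes in that middle level range. By complex these were 30 of 33, 3 of 4, 5 of 7, 10 of 15 and 14 of 16. The differences were small. At 1.5-fold or more 0 were higher, with a background of 1.27%, and 0 lower, with a background of 0.445%. At 1.2-fold or more 11 of the 75 were higher, against 12.6% of all genes and 16.0% in the middle level range. Lower was 1, against 8.73% and 7.17%. Genes of like level had a median of 0.019, and 57 of the 75 subunits stood above their own like-level value, by a median of 0.082. After quantile normalization the median over all subunits was 0.039, with 48 of 75 above 0 against 45.5% of other genes in the middle level range.

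Cox7b, a small nuclear subunit of cytochrome c oxidase, had intensities of 599 (vehicle) and 875 (STZ) in WT and 605 (vehicle) and 549 (STZ) in KO. Only the WT STZ array was high for it, and the difference was 0.54. A second, dim cluster of the gene, between 5.77 and 8.51, gave -0.19 for the same comparison, so the clusters disagreed. Atp5o, the stalk protein that joins the F1 and Fo parts of ATP synthase, differed by 0.55 from a dim signal of 13.9, 22.0, 18.1 and 21.2 in the same order of arrays. For Atp5o the WT vehicle array was the low one and the other 3 lay between 18.1 and 22.0.

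In complex I the subunits past 1.2-fold were accessory proteins, except Ndufv2, an iron-sulfur protein of the NADH-oxidising end. Ndufb11, a membrane-arm subunit, had 51.5 (vehicle) and 69.8 (STZ) in WT and 42.3 (vehicle) and 51.6 (STZ) in KO, a difference of 0.41. Ndufv2 had 727 (vehicle) and 929 (STZ) in WT and 725 (vehicle) and 731 (STZ) in KO, a difference of 0.35. Its 3 other arrays lay close together below that. Ndufv3, an accessory subunit beside it, differed by 0.33, Ndufa12 by 0.31 and Ndufs4, which is needed for assembly of that end, by 0.30. The 6 nuclear-encoded core subunits measured had a median of 0.055 and the 27 accessory subunits 0.092. Core subunits encoded in mitochondrial DNA are not among these 6. After quantile normalization the median of the 6 was near 0, with 3 of 6 above 0, and the accessory median 0.043. Ndufs1, the largest core subunit, was the lowest of complex I at -0.049, with 629, 608, 603 and 553 on the arrays in the order above.

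Complex V differed within itself. The 5 subunits of the catalytic F1 head had a median of 0.070, and -0.014 after quantile normalization. The 11 other subunits had a median of 0.20, all 11 above 0 and above their like-level values, and 0.19 with 10 of 11 above 0 after quantile normalization. Among these were Atp5l (0.28), Atp5mpl, a small proteolipid of the membrane part (0.26), and Atp5md (0.25). Atp5b, the catalytic beta subunit, had 4036 (vehicle) and 3825 (STZ) in WT and 4201 (vehicle) and 3639 (STZ) in KO, a difference of -0.077. The grouping into head and remainder was made after values were known and is a description.

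In complex IV, Cox6b1, which links the monomers of the enzyme, had 483 (vehicle) and 608 (STZ) in WT and 489 (vehicle) and 447 (STZ) in KO, a difference of 0.33. Cox5b, a zinc-binding subunit on the matrix side, differed by 0.26. As with Cox7b, the WT STZ array was high and the other 3 were close together. Cox6b2, the testis form of Cox6b, was the only subunit at least 1.2-fold lower, at -0.38, with 7.18, 4.65, 6.18 and 8.02, values around the level filter. In complex III the highest was Uqcrh, the hinge protein that binds cytochrome c1, at 0.22 with 259.8, 303, 255 and 247, and the lowest was Uqcr11 at -0.075 with 106, 101, 98.9 and 103. Uqcrq, a small ubiquinone-binding subunit, had 18.7, 21.1, 20.5 and 19.3, a difference of 0.15. In complex II, Sdhc, one of the membrane anchors, differed by 0.22, the iron-sulfur subunit Sdhb by 0.13, the anchor Sdhd by 0.090 and the flavoprotein Sdha by -0.15.

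**Figure D2:**
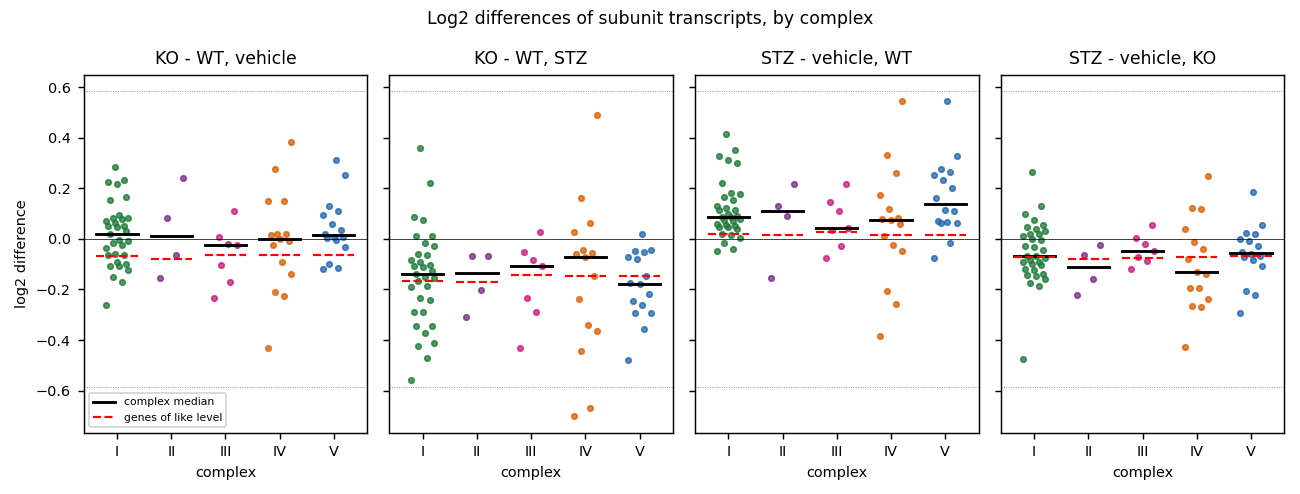
Each point is 1 subunit past the level filter; the vertical axis is its log2 difference between 2 arrays and the horizontal axis its complex. Black bars are complex medians, red dashed bars the medians of the like-level values, and dotted lines mark 1.5-fold. For STZ in WT the 5 black bars lie above the red ones, by the most in complex V (0.14 against 0.017), and for KO against WT under STZ all black and red bars lie below 0 on the deposited scale, where the medians of complexes I, II and IV turn above 0 after quantile normalization.

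In KO muscle the subunits stood slightly below rather than above the vehicle array with STZ on the deposited scale. Medians were -0.066 for complex I, -0.11 for complex II, -0.049 for complex III, -0.13 for complex IV and -0.058 for complex V, and after quantile normalization they were 0.0014, -0.036, 0.020, -0.059 and -0.014, so that complexes I and III changed sign. Of the 75 subunits 54 were below 0, against 57.0% of all genes and 67.0% in the middle level range. Like-level genes had a median of -0.072 and the subunits stood 0.0065 above it. No subunit passed 1.5-fold, with backgrounds of 0.445% higher and 0.656% lower. At 1.2-fold 1 subunit was higher, Ndufb11 at 0.26, against 7.14% of all genes and 3.97% in the middle level range. Lower at 1.2-fold were 5, against 12.7% and 15.2%.

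The 5 lower subunits came from 3 complexes. Ndufb3, a membrane-arm subunit of complex I, had 69.6 (vehicle) and 81.8 (STZ) in WT and 82.0 (vehicle) and 57.9 (STZ) in KO, a difference of -0.48, with KO STZ as the low array. Cox7c, a small subunit of complex IV read by a dim cluster, had 7.25 (vehicle) and 5.79 (STZ) in WT and 10.6 (vehicle) and 6.92 (STZ) in KO, a difference of -0.43, with KO vehicle as the high array. The others were Atp5g3 at -0.29, Cox8a at -0.27 and Cox6a1 at -0.27. Sdhc was again the complex II member with the largest size, at -0.22.

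The STZ differences of the genotypes share no array and can be set side by side. Of the 75 subunits 45 were above 0 in WT and below 0 in KO, against 28.6% of all genes and 34.6% in the middle level range. After quantile normalization 23 of the 75 were (30.7%), against 19.7% in that range. The 45 comprised 20 of complex I, 3 of complex II, 4 of complex III, 8 of complex IV and 10 of complex V. None reached 1.2-fold in opposite directions, where the background was 1.64%. Above 0 in both genotypes were 17 of the 75, against 22.8%, and below 0 in both were 9 of the 75, against 28.3%. The latter were Atp5a1, Atp5b, Cox5a, Cox7c, Cox8a, Ndufa10, Ndufs1, Sdha and Uqcrc1. These include both large F1 subunits, the succinate-oxidising subunit of complex II and a core protein of complex III.

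The difference between the STZ effects, KO minus WT, had medians of -0.14 for complex I, -0.15 for complex II, -0.092 for complex III, -0.21 for complex IV and -0.18 for complex V. After quantile normalization these were 0.0038, -0.0077, 0.012, -0.077 and -0.13: complexes I and III turned to the other sign, complex II lay near 0, and complexes IV and V kept theirs. Below 0 were 67 of 75 subunits, against 57.1% of all genes and 68.9% in the middle level range, and all 16 of complex V. After quantile normalization 43 of 75 were below 0, with 14 of the 16 of complex V. Like-level genes had a median of -0.090, and 53 of 75 subunits were below theirs. At 1.5-fold or more 1 subunit was higher, Cox6b2 at 0.63, against 1.76%, and 2 were lower, Ndufb3 at -0.70 and Cox7b at -0.69, against 3.91%. At 1.2-fold 1 was higher, against 13.0% of all genes and 5.46% in the middle level range. Lower were 22 of the 75, against 22.0% and 27.3%. The difference between genotypes was not tested, since no array is repeated.

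**Figure D3:**
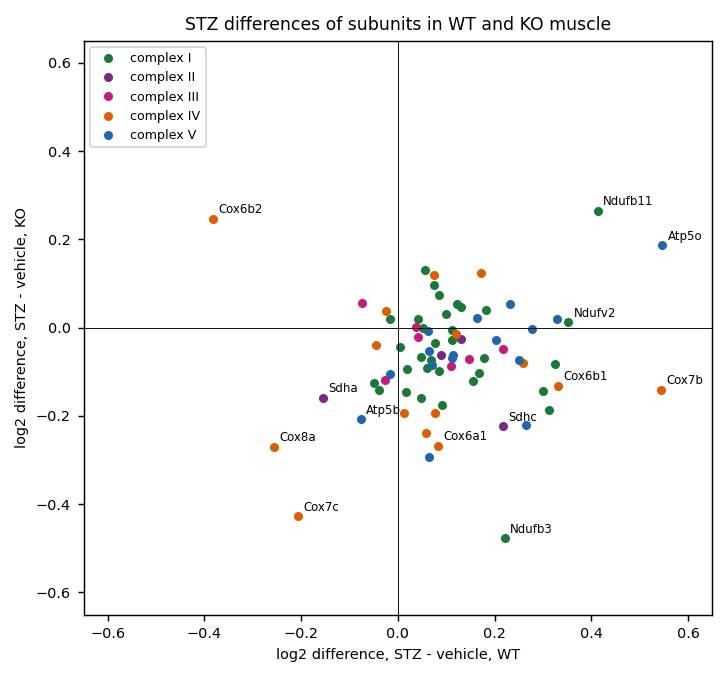
Each point is 1 subunit; the horizontal axis is its log2 difference between STZ and vehicle in WT and the vertical axis the same in KO, and colours mark complexes. The lower right part of the plot, above 0 in WT and below 0 in KO, holds 45 of the 75 points, and it would hold 23 after quantile normalization.

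Under STZ, subunits in KO muscle stood below WT on the deposited scale, apart from 12 of 75, and genes of like level stood below by a similar amount; after quantile normalization the sign turned for complexes I, II and IV. Medians, KO minus WT, were -0.14 for complex I, -0.14 for complex II, -0.11 for complex III, -0.074 for complex IV and -0.18 for complex V, but after quantile normalization complexes I, II and IV stood at 0.066, 0.036 and 0.054, and complexes III and V at -0.042 and -0.021. The like-level median was -0.16 against -0.15 for the subunits, and 38 of 75 were above and 37 below their like-level value. Below 0 were 63 subunits, against 58.1% of all genes and 73.2% of those in the middle level range. After quantile normalization 33 were below 0. No direction for the family as a whole can be given from these arrays.

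At 1.5-fold or more 0 subunits were higher in KO STZ, against 0.845%, and 2 were lower, against 2.81%. These were Cox6a2 and Cox7b, both of complex IV. Lower at 1.2-fold were 21 of the 75, against 18.9% of all genes and 28.2% in the middle level range. Higher were 2, against 9.44% and 4.35%. The 21 comprised 9 of complex I, 1 of complex II, 2 of complex III, 5 of complex IV and 4 of complex V. After quantile normalization 6 were lower and 3 higher at 1.2-fold, against 12.3% and 13.1% of all genes.

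Several of the 21 also stood high in WT STZ against WT vehicle, a comparison that uses the same WT STZ array. Cox7b was at -0.67, and at -0.44 after quantile normalization. Ndufv3 was at -0.56, Atp5mpl at -0.48, with intensities of 555, 667, 558 and 478, and Ndufb3 at -0.47. In complex III, Uqcrb, a small subunit, was lowest, with 3207 (vehicle) and 3458 (STZ) in WT and 2725 (vehicle) and 2564 (STZ) in KO, a difference of -0.43. Both KO arrays were below both WT arrays for Uqcrb. In complex II, Sdhb was lowest at -0.31 with 426, 467, 383 and 376. Higher at 1.2-fold were the dim Cox6b2 at 0.49 and Ndufa4l2 at 0.36.

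Other mitochondrial lists stood lower in KO STZ on the deposited scale as well, and these share the same arrays. The 17 enzymes and carriers of fatty acid beta-oxidation had a median of -0.38, and -0.20 after quantile normalization. The 13 tricarboxylic acid cycle enzymes had -0.25, and -0.055. The 69 mitochondrial ribosomal proteins had -0.17, and -0.021, and the 60 cytosolic ribosomal proteins -0.25, and -0.11. The subunits, at -0.15 and 0.032, were the one of these sets that changed sign. The 8 slow-fibre markers had a median of -0.52. Of these 7 were lower by 1.2-fold or more, against 18.9% of all genes and 28.2% in the middle level range. After quantile normalization the slow-fibre median was -0.35. The 5 adipocyte markers past the filter had -0.48, and -0.41 after quantile normalization. The part of these lists and markers in the subunit values was not tested.

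**Figure D4:**
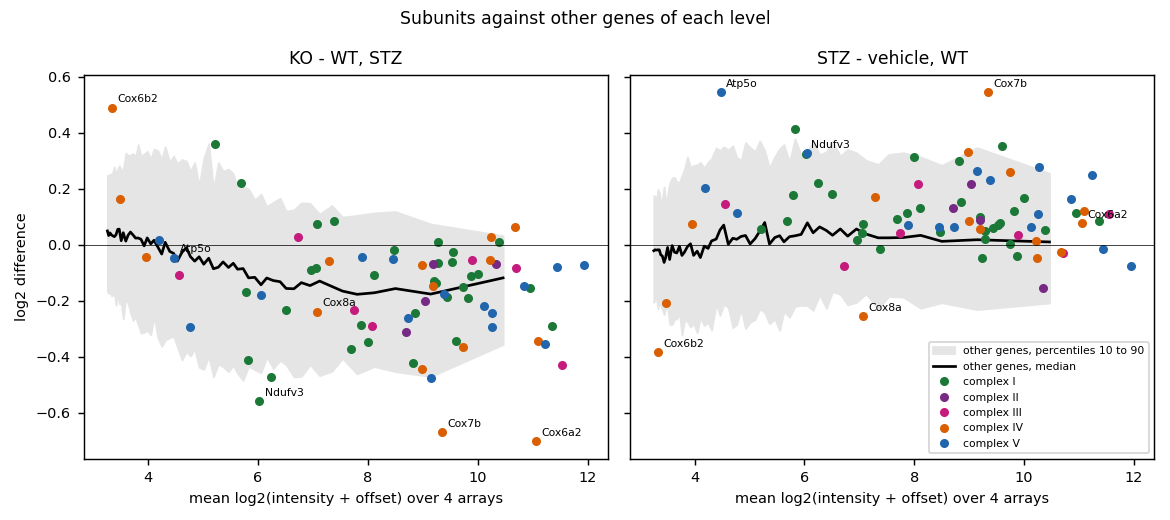
Log2 differences of the 75 subunits (coloured points) against mean log2 level, for KO against WT under STZ (left) and STZ against vehicle in WT (right). The black line is the median of other genes in bins of level and the grey band their percentiles 10 to 90; on the left most points lie around a line that slopes below 0 at high level, and on the right most lie above the line.

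Under vehicle, complex medians lay near 0 on the deposited scale and above 0 in all 5 complexes after quantile normalization. Medians, KO minus WT, were 0.020 for complex I, 0.0092 for complex II, -0.024 for complex III, 0 for complex IV and 0.014 for complex V, and 0.070, 0.066, 0.048, 0.025 and 0.089 after quantile normalization, where complex III turned to the other sign. Above 0 were 39 of 75, against 49.1% of all genes, and 52 after quantile normalization, against 51.3% of all genes and 51.1% in the middle level range. Like-level genes had a median of -0.064, and 54 subunits were above their like-level value. No subunit passed 1.5-fold, with backgrounds of 0.581% higher and 0.777% lower. At 1.2-fold 4 were higher, against 9.07% of all genes and 7.43% in the middle level range. Lower was 1, against 9.33% and 9.73%. The 4 were Cox7c at 0.38, Atp5o at 0.31, Ndufa4l2 at 0.28 and Cox6a1 at 0.28. The 1 lower subunit was Cox6a2 at -0.43.

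Under both treatments 33 of the 75 subunits were lower in KO, against 32.7% of all genes and 45.2% in the middle level range. After quantile normalization 16 of the 75 were (21.3%), against 26.2% and 27.8%. Higher in KO under both treatments were 9, against 23.7% of all genes and 16.9% in the middle level range. After quantile normalization 35 of the 75 were (46.7%), against 29.2% and 31.9%. The KO comparisons under vehicle and STZ share no array. At least 1.2-fold lower under both was 1 subunit, Cox6a2, against 3.23% of all genes. At least 1.2-fold higher under both was also 1, Ndufa4l2, against 1.66%. Ndufa4l2, a paralogue of Ndufa4 known to be induced by low oxygen, had 28.9 (vehicle) and 30.2 (STZ) in WT and 36.0 (vehicle) and 39.7 (STZ) in KO. Ndufa4 itself had 1952, 2110.5, 1931 and 1894 and differed by -0.016 under vehicle and -0.16 under STZ, the latter 0.027 after quantile normalization. Ndufab1, the mitochondrial acyl carrier protein, stood near the 1.2-fold mark in both comparisons, at 0.23 and 0.22.

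Complex IV has pairs of isoforms in which one form is typical of heart and skeletal muscle and the other of most tissues. The promoters of these genes are shown because Cox6a2 was the 1 subunit at least 1.2-fold lower in KO under both treatments on the deposited scale, and its general counterpart Cox6a1 stood above WT under vehicle. Each line is the 250 bases before the transcript start on the gene's own strand, from the RefSeq table for GRCm38.p6, with motif matches in capitals. Cox6a2 is named only. The windows are Cox7a1 at chr7:30183921-30184170 on the plus strand, Cox8b at chr7:140900447-140900696 on the minus strand, Cox6a1 at chr5:115348959-115349208 on the minus strand, Cox7a2 at chr9:79759854-79760103 on the minus strand and Cox8a at chr19:7217617-7217866 on the minus strand.
Cox7a1 (muscle form): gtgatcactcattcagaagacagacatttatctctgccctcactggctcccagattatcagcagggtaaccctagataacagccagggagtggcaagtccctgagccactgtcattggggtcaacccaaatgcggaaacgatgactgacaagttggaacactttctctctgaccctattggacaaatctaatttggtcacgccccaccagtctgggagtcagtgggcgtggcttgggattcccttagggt
Cox8b (muscle form): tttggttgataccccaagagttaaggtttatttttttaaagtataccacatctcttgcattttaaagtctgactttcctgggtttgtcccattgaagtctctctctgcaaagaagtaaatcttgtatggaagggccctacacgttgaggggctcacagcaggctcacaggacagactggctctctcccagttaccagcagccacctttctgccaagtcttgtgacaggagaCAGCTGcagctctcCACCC
Cox6a1 (general form): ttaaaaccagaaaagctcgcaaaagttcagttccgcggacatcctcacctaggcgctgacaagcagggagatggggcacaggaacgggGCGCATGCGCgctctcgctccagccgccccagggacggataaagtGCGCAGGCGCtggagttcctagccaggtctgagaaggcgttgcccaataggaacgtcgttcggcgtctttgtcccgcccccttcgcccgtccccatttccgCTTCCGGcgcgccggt
Cox7a2 (general form): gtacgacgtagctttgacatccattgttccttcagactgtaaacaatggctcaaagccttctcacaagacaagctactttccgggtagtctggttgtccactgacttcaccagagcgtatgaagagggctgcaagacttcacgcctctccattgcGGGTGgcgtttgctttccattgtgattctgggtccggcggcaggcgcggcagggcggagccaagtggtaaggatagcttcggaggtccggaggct
Cox8a (general form): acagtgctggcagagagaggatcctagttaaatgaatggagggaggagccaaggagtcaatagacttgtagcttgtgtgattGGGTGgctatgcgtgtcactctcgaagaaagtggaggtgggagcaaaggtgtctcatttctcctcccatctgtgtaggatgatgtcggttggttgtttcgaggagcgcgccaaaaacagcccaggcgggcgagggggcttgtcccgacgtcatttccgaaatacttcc

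The capitals in these windows mark matches to 6 motifs searched on both strands, which are given with their shares further on. Cox6a1 holds a pair of NRF1 motifs, 162 to 153 and 117 to 108 bases before the start, and an ETS motif 16 to 10 bases before it. Cox8b holds a CACCC box 5 to 1 bases and an E-box 19 to 14 bases before the start. Cox7a2 and Cox8a each hold 1 CACCC box, and Cox7a1 holds none of the 6 motifs. A match is a description of these letters and not a binding site.

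Cox6a2, the muscle form of Cox6a, had 2518 (vehicle) and 2656 (STZ) in WT and 1867 (vehicle) and 1632 (STZ) in KO. Both KO arrays were below both WT arrays. The difference was -0.43 under vehicle and -0.70 under STZ, and -0.37 and -0.51 after quantile normalization. Cox6a1, the general form, had 474 (vehicle) and 502 (STZ) in WT and 575 (vehicle) and 477 (STZ) in KO. For Cox6a1 the KO vehicle array was high and the other 3 lay between 473.6 and 502, with differences of 0.28 under vehicle and -0.074 under STZ, the latter 0.13 after quantile normalization.

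Cox8b, the muscle form of Cox8, also had both KO arrays below both WT arrays, with 2295 (vehicle) and 2493 (STZ) in WT and 1984 (vehicle) and 1965 (STZ) in KO, and differences of -0.21 and -0.34, which were -0.10 and -0.18 after quantile normalization, within 1.2-fold. Cox8a, its general counterpart, had 155 (vehicle) and 129 (STZ) in WT and 132 (vehicle) and 109 (STZ) in KO. Here KO was below WT within each treatment, at -0.22 and -0.24, and STZ below vehicle within each genotype, at -0.26 and -0.27. Cox7a1, the muscle form of Cox7a, had 1629.7, 1601, 1629.7 and 1674, differing by 0 and 0.064. The WT vehicle and KO vehicle values of Cox7a1 were identical, as they were for 179 of the 41345 clusters. Cox7a2, the general form, had 568, 591, 630.4 and 534, with 0.15 under vehicle and -0.15 under STZ, the latter 0.054 after quantile normalization. On the deposited scale, Cox6a2 and Cox8b of the 3 muscle forms were thus low in both KO arrays. Cox7a1 lay at -0.013 under vehicle and 0.23 under STZ after quantile normalization.

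**Figure D5:**
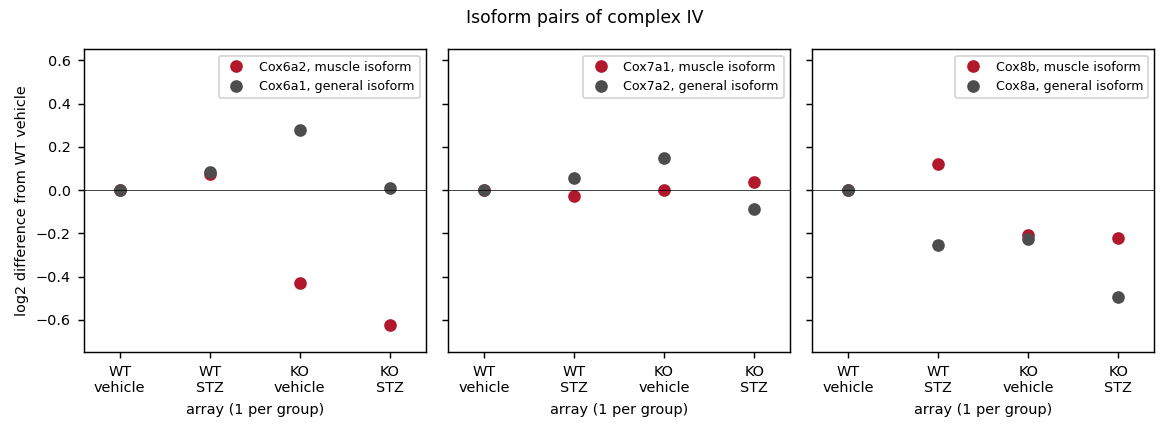
Log2(intensity + offset) of each isoform on the 4 arrays, minus its WT vehicle value, for the pairs Cox6a2 and Cox6a1, Cox7a1 and Cox7a2, and Cox8b and Cox8a; red points are muscle forms and grey points general forms. Cox6a2 lies at -0.43 in KO vehicle where Cox6a1 lies at 0.28, and Cox7a1 stays near 0 on all arrays.

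Of the other forms of complex IV, Cox4i1, the general form of a subunit that takes part in regulation by ATP, had 1162, 1172, 1289.6 and 1128, with 0.15 under vehicle and -0.055 under STZ. Cox4i2, the form typical of lung, had 11.8, 12.6, 10.9 and 12.1, close to the dim end. Cox7a2l, a factor that joins complexes III and IV into supercomplexes, had 145, 164, 144 and 157, with 0.17 for STZ in WT and 0.12 in KO. Cox7b2 and Cox8c, forms of testis, lay below the filter, with 2.89, 2.89, 2.95 and 2.98 and 3.52, 3.59, 3.64 and 3.76.

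The genes Atp5g1, Atp5g2 and Atp5g3 encode the same mature c subunit of the membrane ring of complex V. Atp5g1 had 12.6, 15.0, 15.7 and 15.3, Atp5g2 1259.9, 1361, 1162 and 1109 and Atp5g3 423, 442, 452 and 368. Under STZ, KO differed from WT by 0.019, -0.30 and -0.26, beside like-level values of -0.0053, -0.17 and -0.17. Under vehicle the differences were 0.25, -0.12 and 0.095, so Atp5g2 alone was lower in KO under both treatments. Atp5c1, the gamma subunit that turns within the F1 head, had 24.4, 26.7, 22.2 and 21.1, with -0.12 and -0.29. Atp5k, the e subunit, had 342, 357, 347 and 345 and the smallest difference between STZ effects in complex V, -0.071, which was 0.065 after quantile normalization.

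Ndufb9, a membrane-arm subunit of complex I, had 2729, 2894, 2534 and 2366. KO against WT under STZ was -0.29 for it, where genes of like level stood at -0.12. Sdha had 1396, 1254, 1333 and 1194, with both STZ arrays below both vehicle arrays. Sdhb was lower in KO under both treatments, at -0.15 and -0.31, beside like-level values of -0.063 and -0.17. Sdhc had 482, 560.3, 569 and 487, with the WT STZ and KO vehicle arrays close together above the others, and Sdhd 562, 598, 596 and 570.3. Uqcrc1, a core protein of complex III, had 1699, 1666, 1709 and 1573, and Uqcrfs1, the Rieske iron-sulfur protein, 223, 229, 198 and 195. On the deposited scale Uqcrfs1 was lower in KO, at -0.17 under vehicle and -0.23 under STZ.

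The Ndufaf assembly factors, which help build complex I without staying in it, had medians of 0.053 for STZ in WT, 0.031 in KO, 0.027 for KO under vehicle and -0.048 under STZ. After quantile normalization these were 0.0071, 0.063, 0.033 and 0.11, so the last turned to the other sign. Ndufaf5, which modifies a core subunit during assembly, had 71.6 (vehicle) and 82.5 (STZ) in WT and 45.5 (vehicle) and 64.0 (STZ) in KO, a difference of -0.61 under vehicle, past 1.5-fold, and -0.35 under STZ. Ndufaf6 had 48.7 (vehicle) and 65.2 (STZ) in WT and 55.8 (vehicle) and 44.5 (STZ) in KO, and a difference between STZ effects of -0.70. For Ndufaf5 both KO arrays were low, and for Ndufaf6 the WT STZ array was high.

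Assembly factors outside the symbol rule had medians for STZ in WT of -0.031 over 11 factors of complex I, 0.18 over 4 of complex II, 0.0033 over 6 of complex III, -0.011 over 21 of complex IV and 0.039 over 4 of complex V. After quantile normalization these were -0.10, 0.16, -0.067, -0.066 and -0.030, with complexes III and V turned to the other sign. At 1.2-fold or more 4, 1, 0, 3 and 1 of them were higher, against 12.6% of all genes, and 1, 0, 0, 3 and 0 lower, against 8.73%. Tmem126b, of the complex I assembly complex, was the highest at 0.57, and Nubpl, which inserts iron-sulfur clusters, the lowest at -0.46. Among those of complex IV, Cmc1 was highest at 0.43 and Coa7 lowest at -0.41.

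Of the subunits encoded in mitochondrial DNA, 10 were read on the array. All 10 were above 0 for STZ in WT, against 51.5% of all genes, with a median of 0.079 and ND5 lowest at 0.00073. After quantile normalization 8 of 10 were above 0, against 46.6% of all genes. KO against WT gave -0.064 under vehicle and -0.19 under STZ, and -0.019 and -0.056 after quantile normalization. ND6, the one encoded on the opposite strand from the others, was the lowest in KO, with 2084 (vehicle) and 2327 (STZ) in WT and 1632 (vehicle) and 1511 (STZ) in KO, at -0.35 and -0.62. ND4 was the highest under STZ at -0.027. Cytochrome c (Cycs) and cytochrome c1 (Cyc1) lie outside the symbol rule and are not among these 10. Cycs had 2456, 2856, 2270.2 and 2367, highest in WT STZ. Cyc1 had 383, 403.2, 402.8 and 359, with WT STZ and KO vehicle nearly equal.

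The 16 regulators of mitochondrial gene expression had a median of 0.027 for STZ in WT, with 8 above 0, against 51.5% of all genes. After quantile normalization the median turned to -0.0026, with 8 above 0, against 46.6% of all genes. The other values in this paragraph are on the deposited scale. By 1.2-fold or more 1 was higher, against 12.6% of all genes, and 2 were lower, against 8.73%. Ppargc1a, the coactivator PGC-1 alpha, had 137 (vehicle) and 111 (STZ) in WT and 187 (vehicle) and 115 (STZ) in KO, with 0.44 for KO under vehicle and -0.69 for STZ in KO. Both STZ arrays were low for it. Ppara, a nuclear receptor for fatty acids, was the lowest for STZ in WT at -0.46, and Polrmt, the mitochondrial RNA polymerase, the highest at 0.38. Esrra, the receptor ERR alpha, was the highest for STZ in KO at 0.48. Tfb2m, a mitochondrial transcription factor, was the lowest in KO under both treatments, at -0.26 and -0.46.

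The promoter windows of 65 of the 79 subunits were searched on both strands for 6 motifs in the 250 bases before the start. Of 84 matches 2 shared bases with a match of another motif. The NRF1 motif, which nuclear respiratory factor 1 binds and which reads GCGC, then NT or AN, then GCGC, was in 11 of 65 windows, 16.9%, against 8.37% of 10282 other genes past the filter and 4.23% of all genes in the table. The 11 were Atp5c1, Atp5g2, Atp5h, Atp5k, Cox6a1, Ndufa11, Ndufa5, Ndufa8, Ndufs5, Sdha and Sdhd. The ETS motif CCGGAAG was in 12, 18.5%, against 13.8% and 7.83%. The ERR motif CAAGGTCA was in 3, 4.62%, against 1.19% and 1.51%, in Atp5g3, Atp5l and Ndufs5. The YY1 motif AAGATGGCG was in 1, that of Atp5j. The CACCC box, CACCC, of the kind that Krüppel-like factors bind, was in 29 windows, 44.6%, against 62.1% and 54.5%. The E-box CAGCTG was in 6, 9.23%, against 15.1% and 14.7%.

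Medians of subunits with and without a motif were set side by side. For KO against WT under STZ on the deposited scale, the 10 measured subunits with the NRF1 motif had a median of -0.069 and the 52 without it -0.17. With a CACCC box 28 had a median of -0.081 and 34 without it -0.19. For STZ in WT the medians were 0.079 with and 0.11 without the NRF1 motif, 0.17 with and 0.081 without the ETS motif, and 0.073 with and 0.13 without the CACCC box. These are descriptions with no test, and the motif letters were chosen after the promoter table had been seen.

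Some members could be read only in part. Ndufs5 lay below the filter on its single-symbol cluster, with 4.93, 4.78, 5.28 and 4.85, while a cluster shared with its pseudogene had 314, 337, 325 and 331. The rule left out 9 symbols read only through clusters with several symbols, among them Cox6c, where the brighter cluster had 1601, 1908, 1546 and 1570.1, and Ndufs6, where it had 733, 910, 787 and 757. On both clusters the WT STZ array was the highest. Of the 9 members with over 1 cluster, 4 had clusters of opposite sign for KO under vehicle, Atp5e (0.0031 and -0.28), Cox5b (-0.026 and 0.15), Cox7b (0.015 and -0.37) and Ndufa12 (0.15 and -0.31). Signs were opposite for 1 of the 9 for KO under STZ, 2 for STZ in WT and 6 for STZ in KO. For KO under vehicle Ndufa11 differed in size, with 0.22 on its brighter and 0.79 on its dim cluster.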

How the data were processed

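Gastrocnemius RNA, 4 ug per sample, was hybridised as biotin-labelled cRNA to Affymetrix arrays, 1 per group, per the labels' protocols. The deposited table holds linear intensity values for 41345 transcript clusters. Background correction, summarising and scaling between arrays are given nowhere in the sources used here. Of the clusters, 23521 had 1 symbol in the platform annotation, 1814 several and 16010 none. Values were turned into log2(intensity + 3.69), the offset being percentile 25, which understates differences of dim genes, and genes above the median level of all clusters were kept. All 89 members were matched to RefSeq by Entrez number. Like-level values are medians over a fixed number of non-member genes nearest in mean level. The arrays correlated at 0.987 to 0.991. Precision is limited by the number of arrays, and no p-value was computed.

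Members are named by rule: those past 1.5-fold, the highest and lowest of each complex per comparison, complex II, tissue isoforms and the brightest of each complex, 41 in all. Members named beside them are the others past 1.2-fold, those that complete a counted set, and a few chosen after their values were seen. The members and lists were chosen with earlier results of these data known. The calculation was tested on simulated shifts. The alternatives were quantile normalization, removal of the level trend, 2 other offsets, each gene's mean over its clusters, no level filter and a filter at percentile 75. Python 3.11.15, numpy 2.4.6, pandas 2.3.3 and matplotlib 3.10.9 were used. No paired analysis was made, since each group holds 1 array.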

Additional observations from a re-analysis of the deposited data

Results flagged for a closer look

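In every complex the median STZ difference was above 0 in WT and below 0 in KO on the deposited scale. The median difference, KO minus WT, was -0.14 for complex I, -0.15 for complex II, -0.092 for complex III, -0.21 for complex IV, -0.18 for complex V and -0.15 over all 75 subunits. Other genes in the middle level range had the same signs, at 0.036 in WT and -0.073 in KO, with a difference of -0.11. All of these are differences among single arrays, and they were not tested. After quantile normalization complexes I and III turned to the other sign, complex II lay at -0.0077 and all 75 subunits at -0.019. Complexes IV and V remained below 0, at -0.077 and -0.13.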

How the results depend on the processing

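Of 280 values for groups and counts under 7 alternatives, 253 stayed within the limit of 0.1 or 1.5 times, 20 moved and 7 were reversed. A median was counted as reversed only where its main value was at least 0.1 in size. Smaller medians that changed sign, such as complex III for STZ in WT (0.041 to -0.034), are thus not among the reversed. For KO against WT under STZ, quantile normalization gave medians of 0.066 for complex I, 0.036 for complex II, 0.054 for complex IV, -0.021 for complex V and 0.032 over all subunits, and removal of the level trend gave 0.040, 0.035, 0.028, -0.025 and 0.00075. A filter at percentile 75 gave -0.19 for complex IV. For the difference between STZ effects, quantile normalization gave 0.0038 for complex I, -0.0077 for complex II, 0.012 for complex III, -0.077 for complex IV and -0.019 over all subunits, and removal of the level trend gave -0.027 for complex I. Of the subunits lower by 1.5-fold or more for KO against WT under STZ, 0 were left after quantile normalization, 0 after removal of the level trend and 1 with the mean of all clusters, and 1 was higher with an offset of 1. With that offset 1 subunit was also 1.5-fold higher for STZ in WT. For the difference between STZ effects, 0 were higher with an offset at percentile 75 or a filter at percentile 75, and 0 were lower after quantile normalization, 1 after removal of the level trend and 1 with the offset at percentile 75. The WT STZ median over all subunits ranged from 0.039 to 0.090, and that of complex V from 0.098 to 0.14. Those of complexes I, II and IV also stayed above 0, and complex III did not. Of 1340 values for single members 131 moved and 0 were reversed, which counts only values past 1.5-fold. Signal near background limits Cox6b2, Cox7c, Cox4i2 and Atp5o. No paired analysis was possible because each group holds 1 array.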
